A study of Mus musculus with 18 samples.

Results

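Ttyh1, Nol4, Miat, Zswim5 and Ndrg2 are 5 genes picked for a very large excess of signal in GFP-negative over GFP-positive cells of the mouse retina. Their probe sets were those whose platform annotation gave exactly 1 gene symbol. They numbered 10, of 36701 probe sets on the arrays and 29131 with 1 symbol, and the 5 genes stand among 15964 measured. GFP-positive cells, which represent the endothelium, and GFP-negative cells, which represent the rest of the retina, were sorted from dissociated, pooled retinas of FVB/N mice at postnatal day 8. All mice were homozygous for a Tie2-GFP transgene, so both populations carried it. The Tie2 promoter is active in endothelium and also in some blood-derived cells. Their RNA was amplified and measured on the Affymetrix MGU74v2 set of 3 chips (A, B and C). Every chip received 3 GFP-positive and 3 GFP-negative samples, or 18 arrays in all.

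The 5 genes are known from nervous tissue. Ttyh1 encodes a membrane protein of the tweety family, which is linked to anion channels and found in neural stem cells and glia. Ndrg2 belongs to the N-myc downstream-regulated family, whose proteins have a hydrolase-like fold without a known enzymatic activity, and in brain it is found mainly in astrocytes. Miat, also called Gomafu and Rncr2, is a long non-coding RNA that stays in the nucleus, binds splicing factors and is known from retinal precursors and neurons. Nol4 encodes nucleolar protein 4, a little-studied protein of brain and testis, and Zswim5 a protein with a SWIM zinc finger.

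Promoter sequence from RefSeq (GRCm38.p6) was matched for 4 of the genes, Ttyh1, Miat, Zswim5 and Ndrg2. The 250 bases before the start of each are shown so that a reader can set them side by side. The genes were picked for low signal in GFP-positive cells, so their being low together is no finding about these promoters. For Ndrg2, which has 3 listed starts, the outermost one is shown. Capitals mark GGGCGG, the GC box, and TTTATA, which resembles the core promoter box bound by TBP, on either strand.
Ttyh1, chr7:4119280-4119529, plus strand: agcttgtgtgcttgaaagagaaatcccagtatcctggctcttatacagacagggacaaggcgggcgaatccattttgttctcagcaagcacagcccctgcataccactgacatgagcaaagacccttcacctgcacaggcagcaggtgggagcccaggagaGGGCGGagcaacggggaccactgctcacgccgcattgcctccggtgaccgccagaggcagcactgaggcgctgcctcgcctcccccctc
Miat, chr5:112228949-112229198, minus strand: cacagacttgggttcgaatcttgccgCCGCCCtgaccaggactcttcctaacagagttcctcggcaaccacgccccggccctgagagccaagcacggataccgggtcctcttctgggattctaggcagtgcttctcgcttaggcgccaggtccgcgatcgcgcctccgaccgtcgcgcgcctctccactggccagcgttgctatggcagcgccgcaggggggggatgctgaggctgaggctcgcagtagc
Zswim5, chr4:116877152-116877401, plus strand: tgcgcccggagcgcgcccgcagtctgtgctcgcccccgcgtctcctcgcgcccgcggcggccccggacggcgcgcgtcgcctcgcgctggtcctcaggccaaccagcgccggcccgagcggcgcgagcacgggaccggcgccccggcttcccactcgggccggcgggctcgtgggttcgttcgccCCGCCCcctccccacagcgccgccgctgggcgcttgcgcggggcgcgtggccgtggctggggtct
Ndrg2, chr14:51914005-51914254, minus strand: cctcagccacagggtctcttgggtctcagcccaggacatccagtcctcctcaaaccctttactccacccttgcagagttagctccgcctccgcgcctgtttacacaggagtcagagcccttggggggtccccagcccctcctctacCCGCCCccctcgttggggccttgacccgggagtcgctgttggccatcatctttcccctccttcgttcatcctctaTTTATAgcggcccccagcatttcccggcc

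All 4 sequences held 1 GC box each, a motif present in 32.7% of 32851 RefSeq promoters of the same length, and the Ndrg2 sequence also held TTTATA, present in 12.4%. For Ndrg2 this depended on the start, since the windows at its other listed starts held 0 and 4 GC boxes and no TTTATA. None held CAGCTG (an E-box, in 13% of promoters), CATTGT (a SOX-type motif, in 10.7%) or CAGCACC (part of the RE1 element, in 5.73%), searched on both strands. The Zswim5 promoter was the richest of the 4 in G and C, at 82% with 47 CpG dinucleotides, against medians of 52.4% and 6 over all promoters. Miat had 65.6% and 23 CpG, Ndrg2 62% and 10, and Ttyh1 60.4% and 10. All 4 were above the median in G and C, and the 32.7% for the GC box was not matched for that content. These matches describe the letters of the window and were not tied to binding by any measurement here.

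GFP-positive replicate 3 stood apart on every chip. Its Spearman rank correlation with the other GFP-positive arrays was between 0.911 and 0.929, while pairs within a population without it lay between 0.96 and 0.987 across probe sets. Array medians within a chip were close, from 43.3 to 44.5 intensity units on chip A, 40.7 to 44.5 on chip B and 32.5 to 34.4 on chip C. Precision was limited by there being 3 arrays in each group. Separate animals behind replicate arrays are not stated in the labels, so every SE and p-value reflects array-to-array spread that may be purely technical.

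None of the 5 genes was measured on all 3 chips. Chip A held 2 probe sets (both Ndrg2), chip B 5 (Ttyh1, Miat and Zswim5) and chip C 3 (Nol4 and Miat), and Miat alone was on more than 1 chip. These genes were selected on the difference between the populations measured on these same arrays, so their values are a description and carry no test. On 9 of the 10 probe sets every GFP-positive array lay below every GFP-negative array, as did 17.2%, 17.1% and 13.5% of all probe sets on chips A, B and C. The same 9 passed an adjusted p of 0.05, where 9.25%, 11.3% and 5.88% of all probe sets on those chips passed as lower. Nothing is read from these counts. Log2 differences below are GFP-positive minus GFP-negative, of log2(intensity + 16), with the SE of a limma fit over the whole chip. This scale understates the change of dim probe sets.

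**Figure D1:**
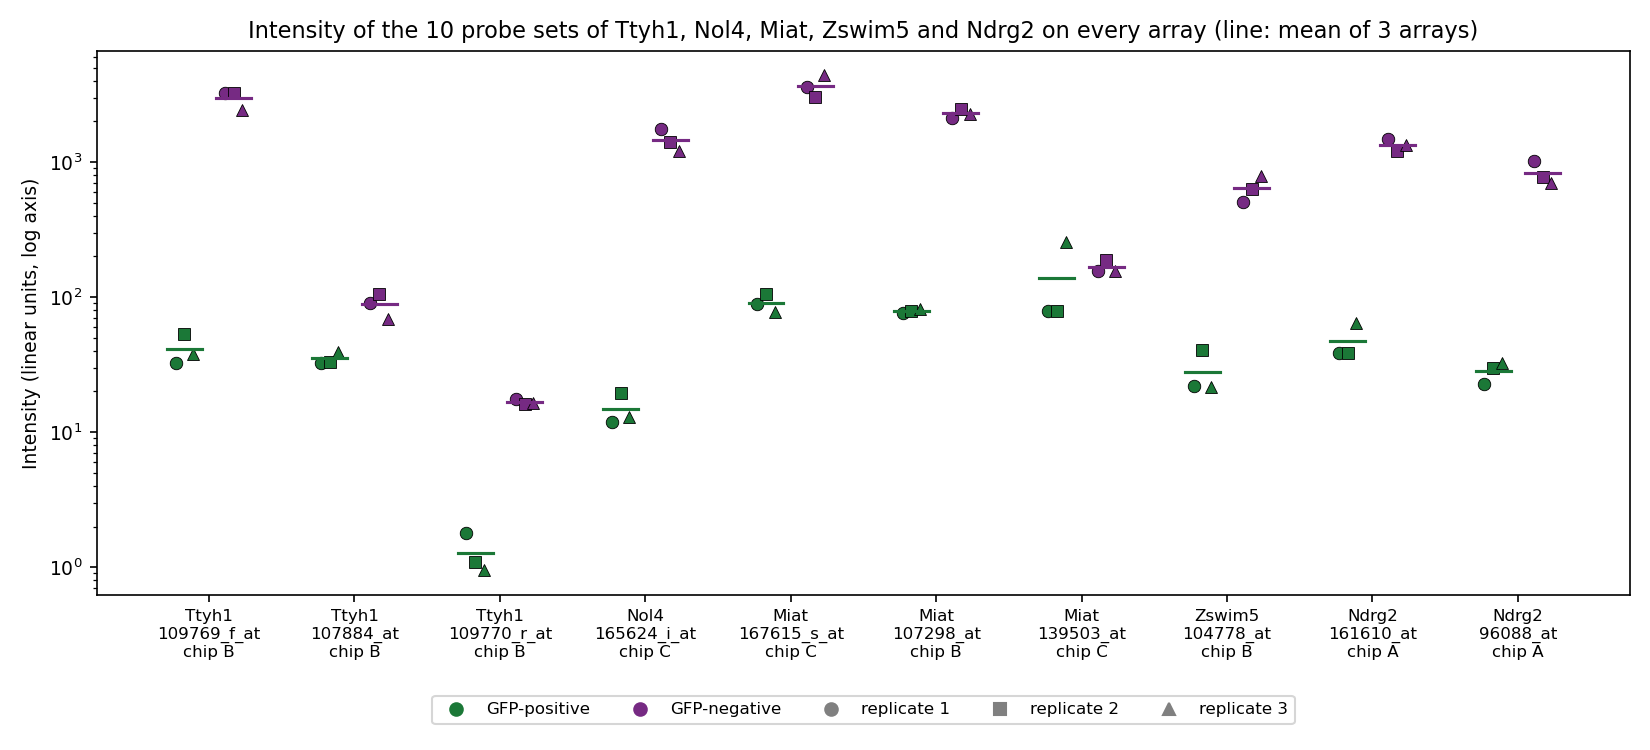
Intensity (linear units on a log axis) of each probe set on 3 GFP-positive arrays (green, left of each pair) and 3 GFP-negative arrays (purple, right), with the replicate given by the symbol and the mean by a line. The populations overlap only at Miat 139503_at, where GFP-positive replicate 3 reads 254, and the gap at the other probe sets ranges from narrow (Ttyh1 107884_at) to wide (Nol4).

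Ttyh1 gave the lowest log2 difference on chip B. Its probe set 109769_f_at read 32.5, 53.4 and 38.2 on the GFP-positive arrays, against 3271, 3235 and 2449 on the GFP-negative arrays, in the order of replicates 1, 2 and 3. The GFP-positive mean of 41.3 ± 10.8 was 1.38% of the GFP-negative mean of 2985 ± 464 (SD, n = 3 arrays each, as for all means here), and the log2 difference was -5.71 (SE 0.18). The other Ttyh1 probe sets on the same chip also separated the populations, but by far less. Probe set 107884_at read 32.8, 33.1 and 39.5 in GFP-positive cells and 90.3, 106 and 68.8 in GFP-negative cells (-1.02, SE 0.15). Probe set 109770_r_at, annotated to the same cDNA as 109769_f_at, was at 1.80, 1.10 and 0.95 in GFP-positive cells and at 17.5, 16.2 and 16.4 in GFP-negative cells.

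For that dim probe set the choice of scale decided the size. Its GFP-positive mean was 7.69% of the GFP-negative mean, a log2 ratio of means of -3.70, whereas the log2 difference with 16 added was -0.92 (SE 0.08). For 109769_f_at the pair was -6.17 and -5.71, and for 107884_at it was -1.33 and -1.02. On linear values, then, the 3 Ttyh1 probe sets ordered as 109769_f_at, 109770_r_at and 107884_at, the last of which kept 39.8% of its GFP-negative signal in GFP-positive cells.

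Nol4 had a single probe set, 165624_i_at on chip C, and gave the lowest log2 difference of that chip. It read 11.9, 19.5 and 12.8 on the GFP-positive arrays and 1772, 1413 and 1204 on the GFP-negative arrays. The means were 14.8 ± 4.14 in GFP-positive and 1463 ± 287 in GFP-negative cells, so the GFP-positive signal was 1.01% of the GFP-negative signal, the smallest share among the 10 probe sets (log2 difference -5.58, SE 0.17). With 1 probe set there is no second measurement of this gene here.

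Miat allowed the comparison between chips. On chip B, 107298_at read 75.9, 78.8 and 82.0 in GFP-positive cells, against 2138, 2455 and 2278 in GFP-negative cells (means 78.9 ± 3.07 and 2290.4 ± 159). On chip C, 167615_s_at read 89.4, 106 and 77.9 in GFP-positive cells, against 3623, 3044 and 4379 in GFP-negative cells (means 91.1 ± 14.1 and 3682 ± 670). The log2 differences were -4.60 (SE 0.09) on chip B and -5.10 (SE 0.16) on chip C, which left a gap of -0.50 between chip C and chip B, and -0.39 without GFP-positive replicate 3. GFP-positive cells kept 3.44% of the GFP-negative signal on chip B and 2.47% on chip C. These probe sets thus gave shares of the same order. Sample titles number the replicates alike on each chip, so the chips may hold the same RNA and are not taken as independent measurements.

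The remaining Miat probe set, 139503_at on chip C, did not share this pattern. It read 79.5, 78.5 and 254 on the GFP-positive arrays and 157, 188 and 155 on the GFP-negative arrays, so that replicate 3 alone lay above the GFP-negative range. This came to -0.44 on the log2 scale (SE 0.42), and without GFP-positive replicate 3 it was -0.94 (SE 0.10). On the same chip and array, 167615_s_at was at its lowest GFP-positive value. The log2 difference of 167615_s_at minus that of 139503_at was -4.67 with all arrays and -4.07 without GFP-positive replicate 3. For 107298_at minus 139503_at these values were -4.17 and -3.69. What made the probe sets differ was not tested.

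Zswim5 was measured by 104778_at on chip B. Its intensity was 22.0, 40.4 and 21.7 in GFP-positive cells and 508.5, 634 and 786 in GFP-negative cells, with means of 28.1 ± 10.7 and 643 ± 139. GFP-positive cells kept 4.37% of the GFP-negative signal (log2 difference -3.91, SE 0.22). Among all probe sets of chip B ordered from the lowest log2 difference it stood at place 23.

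Both Ndrg2 probe sets on chip A gave nearly the same difference. Probe set 161610_at read 38.5, 38.5 and 64.7 in GFP-positive cells, against 1477, 1205 and 1348.5 in GFP-negative cells. Probe set 96088_at read 22.9, 29.8 and 32.8 in GFP-positive cells, against 1019.9, 779 and 695 in GFP-negative cells. The log2 differences were -4.45 (SE 0.18) and -4.24 (SE 0.16), -0.21 apart, and the GFP-positive means were 3.52% and 3.42% of the GFP-negative means. They ranked at places 4 and 11 on the chip.

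**Figure D2:**
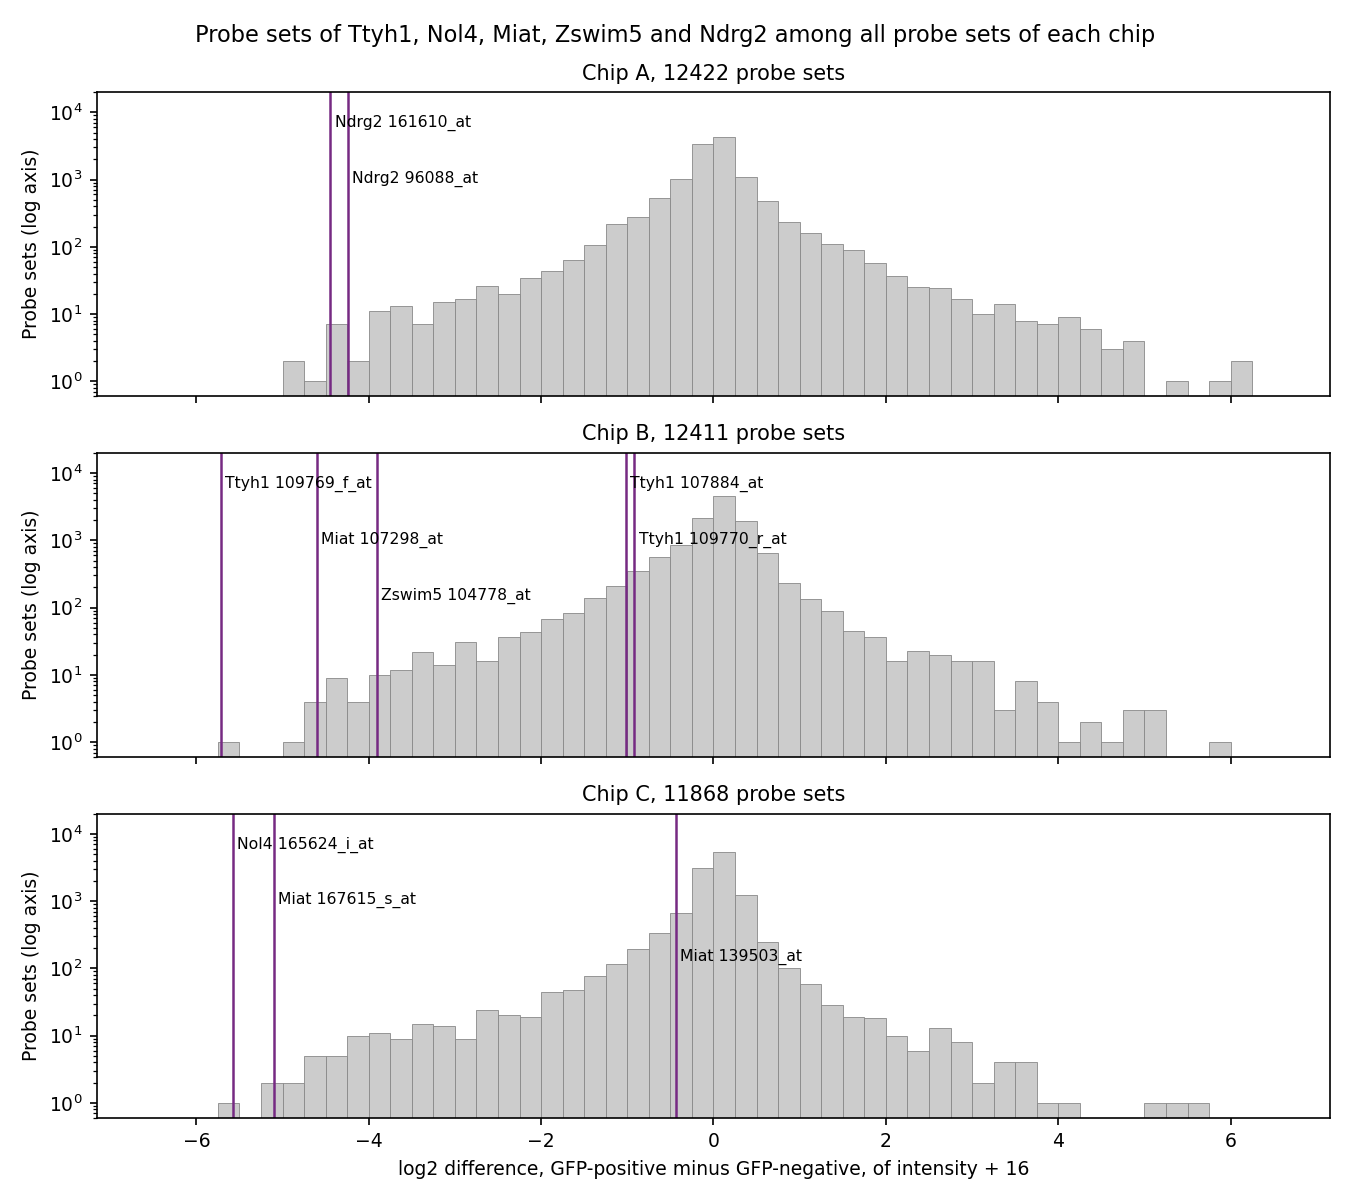
Number of probe sets (log axis) by log2 difference (GFP-positive minus GFP-negative, of intensity + 16) on chips A, B and C, with purple lines at the probe sets of the 5 genes. Ttyh1 109769_f_at (-5.71) and Nol4 165624_i_at (-5.58) mark the low end of chips B and C, while Ttyh1 107884_at, Ttyh1 109770_r_at and Miat 139503_at fall between -1.02 and -0.44.

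The 10 probe sets thus fell into 7 with a log2 difference below -3 and 3 above it, and the 3 smaller ones belonged to genes that also had a large one. Of the 10, 6 carried the plain ending _at and 4 another ending. In Affymetrix naming, _f and _s mark probes shared by several transcripts, and _r and _i mark sets for which a full number of unique probes could not be chosen. Ttyh1 109769_f_at, Nol4 165624_i_at and Miat 167615_s_at, with the lowest (for Nol4 the only) log2 difference of their genes, carried such endings. Plain _at probe sets gave -4.60 for Miat on chip B, -3.91 for Zswim5 and -4.45 and -4.24 for Ndrg2, but only -1.02 for Ttyh1.

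Relative spread within populations differed between probe sets. The coefficient of variation ran from 4.12% to 21.6% over the GFP-negative arrays and from 3.89% to 73.6% over the GFP-positive arrays, and the last value was that of Miat 139503_at. The highest GFP-positive array was replicate 3 at 5 probe sets, replicate 2 at 4 and replicate 1 at 1. Detection calls were not used here, so no GFP-positive intensity is called above or below background and the shares given above include any background.

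**Figure D3:**
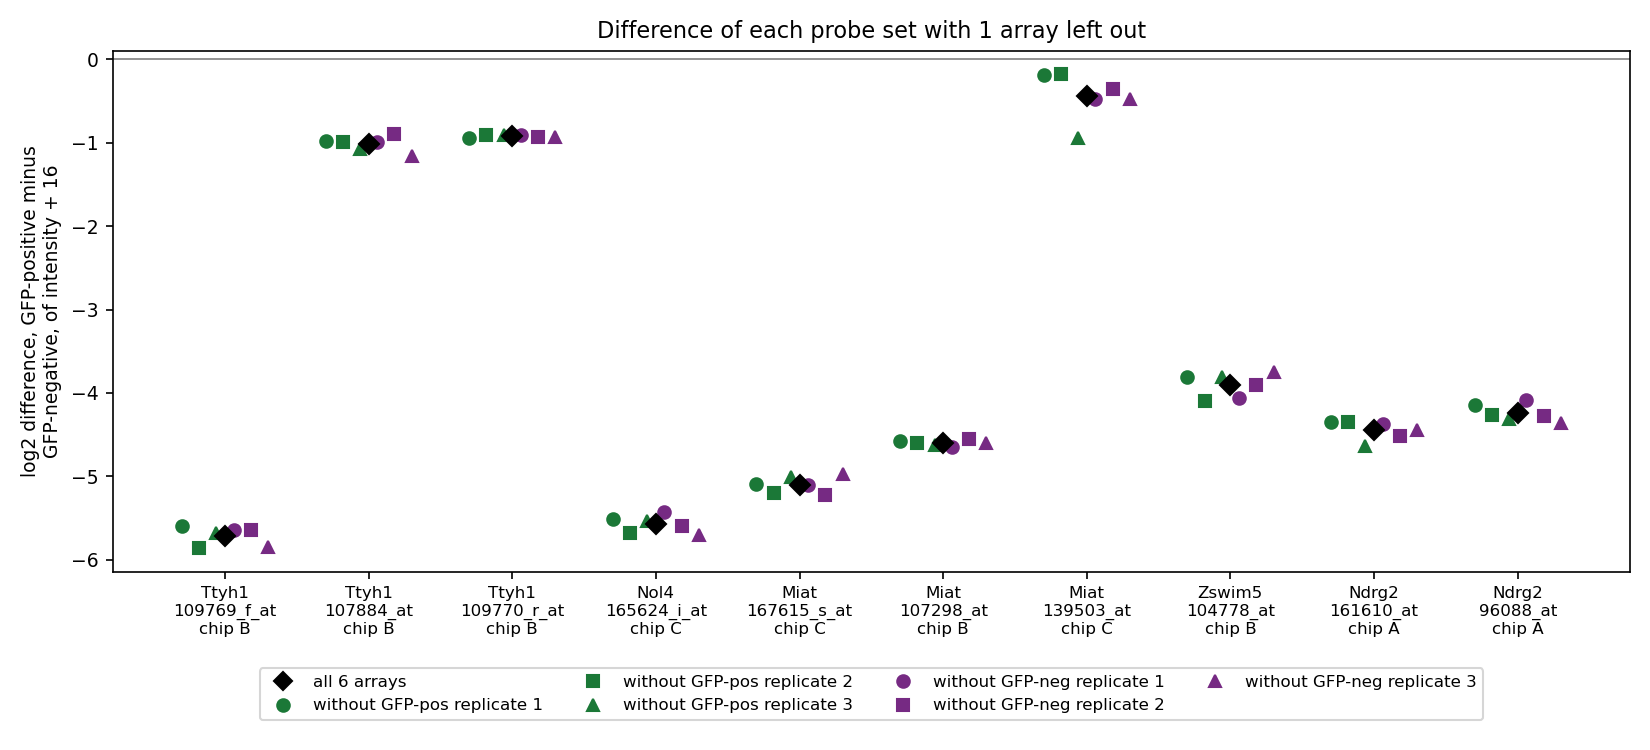
Log2 difference (GFP-positive minus GFP-negative, of intensity + 16) of each probe set with all 6 arrays (black) and with each array left out in turn (green, a GFP-positive array; purple, a GFP-negative array). Miat 139503_at ranges from -0.94 to -0.18, while the 7 probe sets below -3 stay between -5.86 and -3.75.

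No omission of an array brought one of the 7 large differences above -3.75. Miat 139503_at moved most, to -0.94 without GFP-positive replicate 3 and to -0.18 without GFP-positive replicate 2. Ttyh1 109769_f_at stayed between -5.86 and -5.60, Nol4 between -5.71 and -5.43, and Zswim5 between -4.10 and -3.75.

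Relatives of the 5 genes, which did not choose them, could be tested. Of 19 listed symbols, covering paralogues and proteins that bind Miat RNA, 16 were measured, each by its brightest probe set on the first chip that held it. At an adjusted p under 0.05 over the chip (limma), 4 fell in GFP-positive cells and none rose, where 11.3% and 9.43% of 15964 genes measured this way were lower and higher. Without adjustment, 6 were lower and 0 higher at a p under 0.05. The other 12 did not pass, though 1 more (Qk) was higher without GFP-positive replicate 3, and the median log2 difference was -0.08, against 0.04 over all genes. These relatives were listed with earlier results of these data known.

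Of the 4 that fell, 3 were Ndrg2's relatives Ndrg1, Ndrg3 and Ndrg4. Ndrg1, a stress- and hypoxia-responsive relative of Ndrg2, read 104, 214 and 110.2 in GFP-positive cells and 1357, 1575 and 1595 in GFP-negative cells. In limma this was a log2 difference of -3.33 (SE 0.26, adjusted p = 0.00064), and a further Ndrg1 probe set, 160464_s_at, gave -3.02 (adjusted p = 0.00102, limma). Ndrg4, the relative known from neurons and heart, averaged 31.7 in GFP-positive and 154 in GFP-negative cells (-1.81, SE 0.18, adjusted p = 0.00145, limma). Other Ndrg4 probe sets did not pass, at -0.79 for 161998_f_at on chip A and 0.18 for 106181_at on chip B, though 161998_f_at was lower without GFP-positive replicate 3 (-1.03, adjusted p = 0.0105, limma).

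Ndrg3 averaged 24.4 in GFP-positive and 47.9 in GFP-negative cells (-0.66, SE 0.12, adjusted p = 0.0125, limma). Its probe set on chip B, 164345_r_at, read 209, 188 and 10899 on the GFP-positive arrays and 2298, 2739 and 1138 on the GFP-negative arrays. That probe set gave -1.29 on the log2 scale (SE 1.5, adjusted p = 0.576, limma), and -3.18 without GFP-positive replicate 3 (adjusted p = 0.000602, limma), so that array decided the call.

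Nol4l, the paralogue of Nol4, averaged 44.7 in GFP-positive and 80.7 in GFP-negative cells (-0.67, SE 0.15, adjusted p = 0.0203, limma). That call ended without GFP-positive replicate 1 (adjusted p = 0.057), GFP-positive replicate 2 (adjusted p = 0.0738) or GFP-negative replicate 1 (adjusted p = 0.0528), and the other 4 Nol4l probe sets lay between 0.03 and 0.27 and did not pass. The Ttyh1 paralogues did not pass, with Ttyh2 at 59.8 in GFP-positive and 48.4 in GFP-negative cells (0.21, SE 0.16) and Ttyh3 at 189.8 in GFP-positive and 191 in GFP-negative cells (0.00, SE 0.19). None of the 7 measured Zswim relatives of Zswim5 passed in limma (1 had an unadjusted p under 0.05), with log2 differences between -0.44 (Zswim6) and 0.19 (Zswim3). Zswim6 was lower without GFP-negative replicate 2 (-0.63, adjusted p = 0.0302, limma).

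Among proteins that bind Miat RNA, Qk, the RNA-binding protein quaking, was the brightest listed gene that did not pass. It read 1194, 1072 and 560.1 in GFP-positive cells and 743, 425 and 633 in GFP-negative cells (0.60, SE 0.34, adjusted p = 0.308, limma). Without GFP-positive replicate 3 it was higher in GFP-positive cells by 0.93 (adjusted p = 0.038, limma), and a dimmer Qk probe set on chip B, 115629_at, was higher with all arrays (0.80, adjusted p = 0.00498, limma). The other Qk probe sets, 105981_at on chip B and 160726_at on chip A, did not pass, at 0.09 and 0.15. The splicing factor genes Sf1 and Srsf1 did not pass, at -0.08 (SE 0.10) and -0.55 (SE 0.16).

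Other long non-coding RNAs were set beside Miat. Of 20 listed, 16 were measured, and 2 fell in GFP-positive cells and none rose (limma, same backgrounds of 11.3% and 9.43%), with a median of 0.00. Without adjustment, 5 were lower and 1 higher at a p under 0.05, and without GFP-positive replicate 3 the adjusted count of lower genes was 4, with Malat1 and Dlx6os1 added. Sox2ot, transcribed across the Sox2 locus, read 4.89, 7.78 and 4.82 in GFP-positive cells and 264, 179.6 and 188 in GFP-negative cells (-3.36, SE 0.15, adjusted p = 0.00019, limma). Its GFP-positive arrays all lay far below the GFP-negative ones, from a single probe set with the ending _r_at. Meg3, the maternally expressed imprinted RNA, averaged 47.1 in GFP-positive and 116.4 in GFP-negative cells (-1.07, SE 0.12, adjusted p = 0.00265, limma), and a further chip A probe set, 160173_at, gave -0.85 (adjusted p = 0.0081, limma). The 7 Meg3 probe sets of chips B and C did not pass.

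Gas5, a host of small nucleolar RNAs, was the brightest listed long non-coding RNA that did not pass, at 2493 in GFP-positive and 2253 in GFP-negative cells (0.15, SE 0.09). A dim Gas5 probe set on the same chip, 101885_at, was higher in GFP-positive cells (0.58, adjusted p = 0.0148, limma), and the remaining one, 98530_at, did not pass (0.19). Malat1, a nuclear RNA of most cells, read 214.5, 108 and 519 in GFP-positive cells and 889, 594 and 479 in GFP-negative cells (-1.39, SE 0.52, adjusted p = 0.111, limma). Without GFP-positive replicate 3 it was lower in GFP-positive cells by the test (-1.94, adjusted p = 0.00452, limma). Airn did not pass by its dim chip B probe set, 164164_at (0.34, adjusted p = 0.06, limma). A brighter Airn probe set on chip C, 133799_at, was higher in GFP-positive cells (0.94, adjusted p = 0.0102, limma). The other Airn probe sets, 130326_at and 166911_at on chip C, did not pass, at 0.03 and 0.21.

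**Figure D4:**
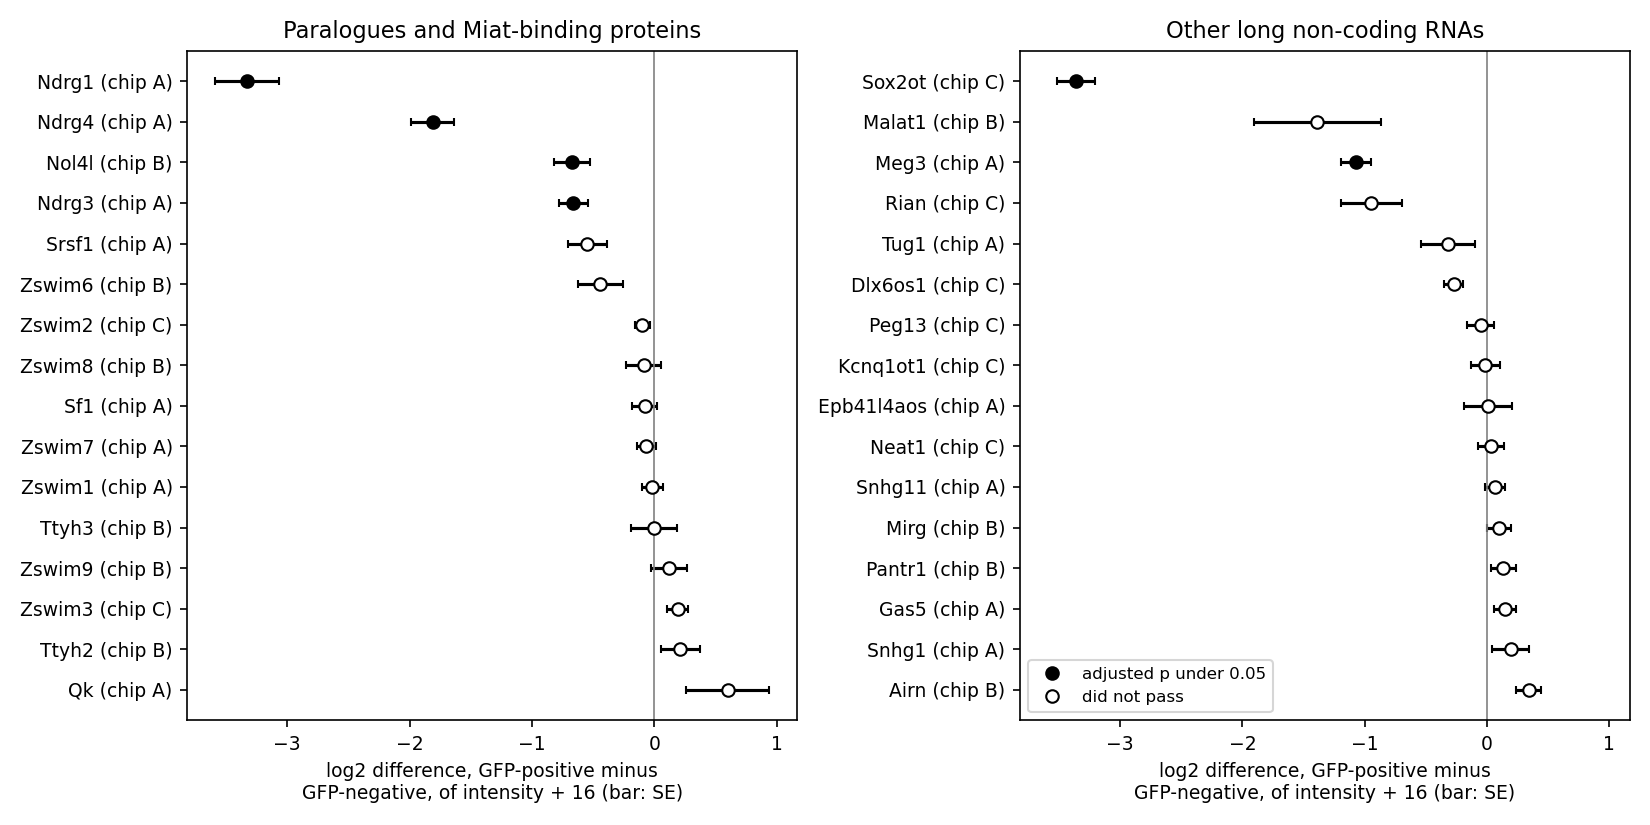
Log2 difference (GFP-positive minus GFP-negative, of intensity + 16) with its SE for 16 paralogues and Miat-binding proteins (left) and 16 other long non-coding RNAs (right), with filled points for an adjusted p under 0.05. Filled points are Ndrg1, Ndrg4, Nol4l and Ndrg3 on the left and Sox2ot and Meg3 on the right, all on the negative side.

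The probe sets most like each gene were found by the root-mean-square difference of mean-centred log2(intensity + 16) over the 6 arrays of its chip, a measure led by the difference between the populations. For Ttyh1 109769_f_at they were Col9a1 (0.39), Dkk3 (0.55) and Cntn1 (0.61), for a collagen, a secreted Wnt modulator and a neural adhesion protein. Nol4 and Miat 167615_s_at shared Adgrv1, an adhesion receptor, as the closest, at 0.43 and 0.28. Nol4 was followed by Mgarp (0.60) and Rorb (0.61), and Miat by C130071C03Rik (0.31) and St18 (0.38). Zswim5 was followed by Rit2, a small GTPase of neurons, at 0.11. After it came Prkca, the protein kinase that marks rod bipolar cells, at 0.13 and Lin7a at 0.16. Ndrg2 was followed by Dpysl4 (0.21), Ddr1 (0.24) and Epha5 (0.34).

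Of the marker lists of retinal cell types, those of Müller glia, progenitors and photoreceptors leaned lower in GFP-positive cells. The counts stand beside the same backgrounds, 11.3% of all genes lower and 9.43% higher. Müller glia are the main glia of the retina, and 10 of 13 of their listed genes fell in GFP-positive cells (limma), with Rlbp1 (-4.38), Sox2 (-4.37) and Sox9 (-3.82) lowest. Their summed intensity was 587 to 1667 over GFP-positive arrays, the highest on replicate 3, and 4132 to 6507 over GFP-negative arrays. Progenitor genes fell for 5 of 9, with sums of 283 to 335 in GFP-positive and 1911 to 2044 in GFP-negative cells. Photoreceptor genes fell for 3 of 7, with sums of 329 to 683 in GFP-positive cells, the highest on replicate 3, and 748 to 1446 in GFP-negative cells. Of 10 astrocyte genes 3 fell and 1 rose, and of 16 amacrine and ganglion neuron genes 2 fell and 2 rose, all by limma, and the neuron counts lay near those backgrounds. Astrocyte sums were 1339 to 1819 in GFP-positive and 1304.5 to 2012 in GFP-negative cells. Most of the GFP-positive sum was Gja1, the gene that rose, at 1431, 943 and 1141, against 123, 36.3 and 52.5 in GFP-negative cells. Among the 3 that fell were Aldoc (-3.92) and Pdgfra (-3.45). The neuron sums were 615 to 676 in GFP-positive and 562 to 646 in GFP-negative cells. Without GFP-positive replicate 3, the lower counts were 10 for Müller glia, 5 for progenitors, 2 for photoreceptors, 3 for astrocytes and 3 for the neurons.

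Endothelial genes marked the sort, as 14 of 18 rose, where 9.43% of all genes did, and none fell (limma, also 0 at an unadjusted p under 0.05), led by Cldn5, Cd93 and Eng. Their sums were 15544 to 19322 in GFP-positive and 2502 to 3529 in GFP-negative cells. Microglia and leukocyte genes rose for 3 of 13 (limma, against 9.43% of all genes), with sums of 763 to 1600.1 in GFP-positive and 517 to 552 in GFP-negative cells. None of 10 pericyte, 2 red cell or 2 bipolar genes passed in limma, with 1 lower, 1 higher and 0 at an unadjusted p under 0.05. Pericyte sums were 330 to 423 in GFP-positive and 384 to 452 in GFP-negative cells, and red cell sums 142 to 167 in GFP-positive and 119 to 134 in GFP-negative cells. Of 6 listed bipolar genes only 2 were measured, so this list says little about bipolar cells. Trpm1 read 57.5, 55.1 and 67.6 in GFP-positive cells, and Pcp2 read 172, 240 and 3689. Bipolar sums, led by Pcp2, were 229.6 to 3756 in GFP-positive cells, with replicate 3 at the top, and 845 to 1360 in GFP-negative cells. Without that array, 1 pericyte gene, 1 bipolar gene and 1 microglia and leukocyte gene were lower, and 15 endothelial genes and 1 red cell gene higher, in GFP-positive cells. No listed marker was at 0 on all GFP-positive arrays. Whether the low residual signal of the 5 genes in GFP-positive cells came with other cell types in the sort was not tested. In these bulk samples, fewer cells of a type and less RNA per cell cannot be told apart.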

How the data were processed

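Per the labels' protocols, retinas were dissociated with papain, sorted by flow cytometry, and their RNA amplified and biotin-labelled for 1-colour arrays. The values as deposited are intensities on a linear scale, 1 per probe set. The authors' probe summary, background correction and normalization are not given in the sources used here. They could change each difference. The intensities were kept as scaled. Groups and replicate numbers came from the sample titles. Gene symbols of probe sets came from GEO's platform annotation, and RefSeq changed 0 of the 5 symbols.

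Each chip was fitted alone on log2(intensity + 16) by limma's lmFit and eBayes (limma 3.58.1, R 4.3.3, two-sided tests), without a replicate block, with Benjamini-Hochberg adjustment over the chip at 0.05. The fit was run on simulated data, with independent noise that had equal spread on all arrays for each probe set. That setting held no outlying array such as GFP-positive replicate 3. Promoter motifs were searched with Python, and figures drawn with matplotlib 3.10.9. The genes and lists were chosen with earlier results of these data known. The text names every probe set of the 5 genes, every called gene of the tested lists and the brightest that did not pass. It also names up to 3 markers per cell type and the 3 probe sets most like each gene. Other named genes of these lists (the Ttyh and Zswim relatives, Sf1, Srsf1, Malat1, Airn and further probe sets) were chosen after their values were seen. The alternatives changed the pseudocount (1 or 64), the normalization (quantile, or arrays centred on their median), the variance model (limma-trend with robust eBayes, or array weights), the probe sets (those above the chip's median, or any probe set of a gene) and the adjustment (all 3 chips at once). Replicate number was also tried as a block, and each array was left out in turn.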

Additional observations from a re-analysis of the deposited data

How the results depend on the processing

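The median log2 difference over the 10 probe sets was -4.34, and it was -4.83 with a pseudocount of 1 and -3.46 with 64, as follows from the smaller or larger constant added. With each array left out it lay between -4.47 and -4.23. Of 139 values of single probe sets under the alternatives, 120 moved by less than 1 SD between arrays, 19 by more, and none changed sign. Among the 120 are values under limma-trend, the replicate block and the filter on bright probe sets, which cannot move a difference here. The count of paralogues and Miat-binding proteins that were lower stayed between 3 and 5 when an array was left out. The count that were higher was 2 with array weights (Zswim3 and Qk), 1 when any probe set of a gene counted (Qk), and 0 to 1 without single arrays. For long non-coding RNAs the lower count was 5 with array weights and 2 to 4 without single arrays, with 4 without GFP-positive replicate 3, where Malat1 and Dlx6os1 (adjusted p = 0.042) were added (limma). The higher count was 1 with a pseudocount of 1, with limma-trend and with array weights, each time Airn, and 2 when any probe set counted. Apart from the pseudocount and the any-probe-set count, the cause was not tested. A replicate block left the counts of these lists at 4, 0, 2 and 0. It could not move the median of -4.34, because each replicate number was in both populations. Correlations of deviations between same-numbered arrays of the populations lay between -0.37 and 0.29, of which 3 of 9 were above 0.1. Only 2 of 9 GFP-positive arrays correlated best with their own number. GFP-positive replicate 3 correlated best with GFP-negative replicate 2 on chips A, B and C (0.38, 0.41 and 0.44). Deviations of 3 arrays constrain each other, so these values do not settle whether arrays were paired. Marker counts without GFP-positive replicate 3 were added after seeing the data. Detection calls were not used, so the depth of the dim values over background is not given.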
